A study of Mus musculus with 4 samples.

Results

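The 34 genes described here carry glucose into the cell, break it down to lactate, export the lactate, and respond to low oxygen. They were taken by symbol from 14082 genes listed in each of 4 count tables, and all 34 were found and tested. By role they are 4 transporter genes, 15 glycolytic enzyme genes, 2 regulators of the pathway, the hypoxia factor gene Hif1a and 12 of its known targets. The samples were sorted ovalbumin-specific CD8 T cells from subcutaneous tumours of E.G7, an ovalbumin-expressing mouse T lymphoma line, sequenced as bulk total RNA. All hosts were 6 to 10 weeks old at injection and carried floxed Smad4 (Smad4-fl/fl). The 2 libraries labelled WT had no Cre and the 2 labelled KO also carried Cd8-cre, which acts in cells that use the Cd8 promoter, so other host cells and the injected tumour cells keep Smad4. No label states whether libraries that share a genotype derive from different mice. A p-value here thus reflects only library-to-library spread, which may be technical.

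Glycolysis converts glucose to pyruvate in the cytosol, and lactate dehydrogenase turns pyruvate to lactate when the flux exceeds what mitochondria take up. Activated T cells and many myeloid cells are known for high glycolytic flux. HIF-1α, the oxygen-regulated subunit of the transcription factor HIF-1, is hydroxylated by the EGLN enzymes and destroyed when oxygen is present. When it persists it switches on genes of glycolysis, angiogenesis, mitophagy and collagen modification. Its control is mostly at the protein level, which RNA counts do not measure.

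Summed counts per library were between 24366540 and 26218277, and the 34 genes took 1.36% of counts in both libraries labelled WT and 1.52% in both labelled KO. These are shares of unscaled counts. After the scaling used for the levels below, the 15 enzyme genes, which hold most of these counts, had a KO to WT ratio of 1.04. Smad4, the targeted gene, was counted 752 and 736 times (WT) and 779 and 1088 times (KO), so its count did not separate the labels (log2 fold change 0.19, edgeR adjusted p = 0.397). Its log2 fold change was 0.40, higher in KO, without KO replicate 1 and -0.06 without KO replicate 2. Directions below are therefore between libraries labelled KO and WT. Mitochondrial genes took 10.2% to 10.4% of counts in WT and 6.57% to 6.99% in KO. The labelled cell type was present but not alone. Over all tested genes 10.1% were called higher in KO and 11.0% lower (edgeR adjusted p under 0.05), the background for the marker counts here. Of 8 CD8 T cell markers 7 were lower. Summed levels of the 8 were 3057 and 3114 CPM (counts scaled to a common library size by TMM) in WT and 2040 and 2018 in KO. Monocyte and macrophage markers summed to 21931 and 22758 CPM in WT and 22524 and 23115 in KO, led by Lyz2. Of these 15 markers 2 were higher (13.3%, near the background) and 4 lower (26.7%). Neutrophil markers summed to 708 and 726 CPM in WT and 2020 and 2016 in KO, with 9 of 15 higher and 0 lower (0 lower at an unadjusted p under 0.05), although the neutrophil surface marker Ly6g had only 9 to 19 counts per library. Of the other marker lists, erythroid markers summed to 28.9 and 36.5 CPM in WT and 89.9 and 56.5 in KO. The sums were 1268 and 1264 (WT) against 1046 and 1049 CPM (KO) for dendritic cell markers. Of these 9 markers 2 were higher (Siglech and Flt3) and 2 lower (Ccr7 and Cd209a), with a median log2 fold change of 0.048. Ccr7 alone had 1036 and 1035 CPM in WT and 708 and 702 in KO, a larger fall than that of the sum. The sums were 620 and 574 against 654 and 721 CPM for fibroblast and endothelial markers. Markers of immature T cells and the lymphoma line summed to 316 and 305 CPM in WT and 312 and 320 in KO, but within this sum Thy1 was lower and Ptcra, Cd4 and Dntt were higher (3 of 5 higher and 1 lower). Many of these cell types express glycolytic genes, and their part in every result below was not tested. In bulk RNA, fewer cells of a type and less RNA per cell cannot be told apart.

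The hypoxia targets Adm, Ddit4, Egln3 and Ndrg1 and the regulator Pfkfb3 had the 5 largest rises of the 34 genes and all passed the test, whereas 7 of the 12 hypoxia targets and 13 of the 15 glycolytic enzymes did not pass. Of the 34 genes, 10 were higher and 2 were lower in KO at an edgeR adjusted p under 0.05 (Benjamini-Hochberg over all 13358 tested genes). That is 29.4% and 5.88% of them, beside 10.1% of all tested genes called higher and 11.0% called lower. Their median log2 fold change was 0.12, against -0.0037 over all tested genes. Adm had the largest rise (1.89-fold), followed by Ddit4 (1.54-fold), Egln3 (1.49-fold), Pfkfb3 (1.43-fold) and Ndrg1 (1.31-fold). The 5 other rises were between 1.14-fold and 1.18-fold. Hif1a itself and Bnip3l were the 2 lower genes. Both KO libraries lay outside the range of the WT libraries for 28 of the 34 genes, 22 above and 6 below, beside 59.8% of all tested genes (29.7% above and 30.0% below). The plot of fold changes by role shows this split.

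**Figure D1:**
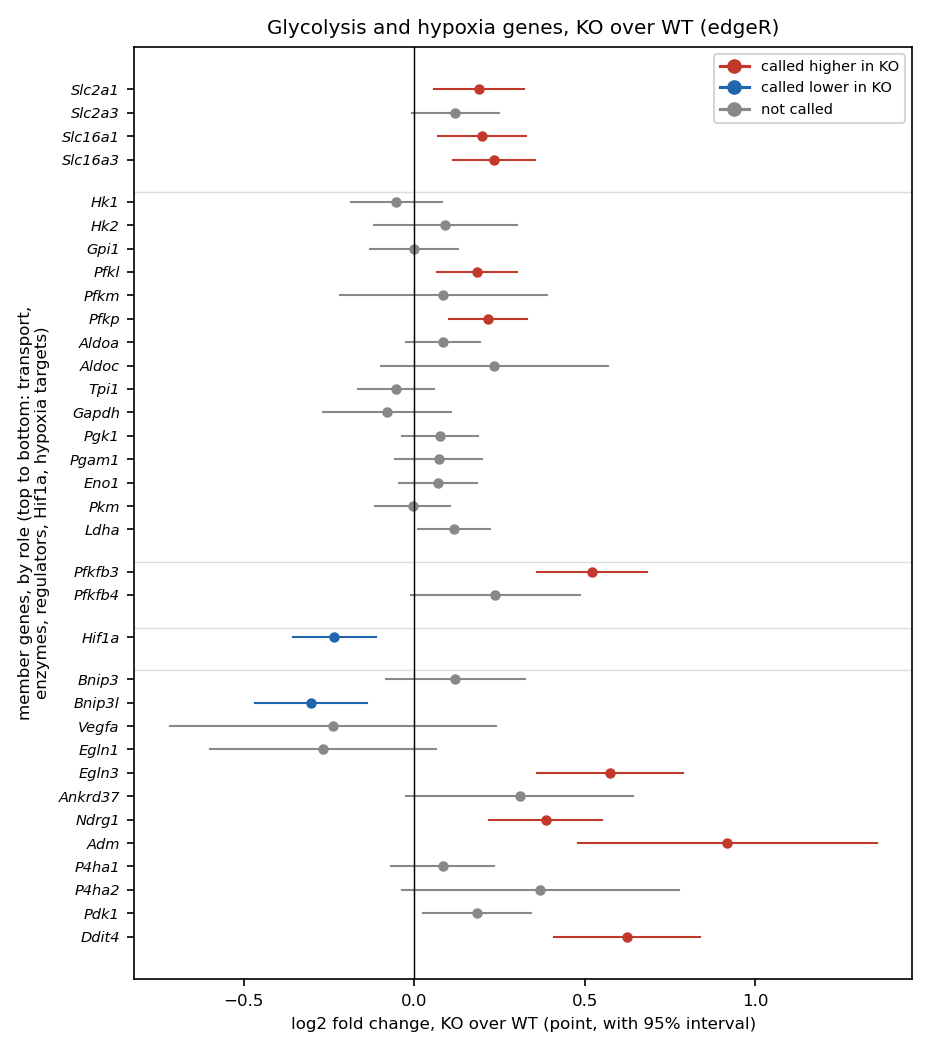
Log2 fold change of KO over WT for each of the 34 genes, grouped by role, with the 95% confidence interval of the edgeR fit as a line. Red genes were called higher, blue lower and grey neither. Most enzyme intervals include 0, and the farthest points to the right are Adm, Ddit4, Egln3 and Pfkfb3.

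HIF-1 binds DNA at the hypoxia response element, whose core is ACGTG or GCGTG. Only the ACGTG form was searched for here. The 250 bases upstream of the transcription start are shown, from RefSeq (GRCm38.p6), for the 4 genes that rose most and have an entry, for the glucose transporter gene Slc2a1 and for Ldha, the most abundant member. Where a gene had several starts, the one nearest its start in GENCODE M21 was taken, which for Ldha still lies 4329 bases from it. Each is printed 5′ to 3′ on the gene's own strand, with each match on either strand (ACGTG or CACGT) in capitals.
Adm, chr7:110627407-110627656, plus strand: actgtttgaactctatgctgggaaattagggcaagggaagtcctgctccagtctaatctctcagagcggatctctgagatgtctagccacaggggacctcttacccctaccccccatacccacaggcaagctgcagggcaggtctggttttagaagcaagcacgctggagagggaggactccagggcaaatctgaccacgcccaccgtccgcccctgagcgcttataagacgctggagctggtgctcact
Ddit4, chr10:59951771-59952020, minus strand: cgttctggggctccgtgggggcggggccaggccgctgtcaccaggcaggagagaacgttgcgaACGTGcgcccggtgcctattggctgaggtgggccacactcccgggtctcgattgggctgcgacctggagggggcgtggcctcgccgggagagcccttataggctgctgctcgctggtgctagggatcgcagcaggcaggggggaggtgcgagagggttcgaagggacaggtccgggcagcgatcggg
Egln3, chr12:54203875-54204124, minus strand: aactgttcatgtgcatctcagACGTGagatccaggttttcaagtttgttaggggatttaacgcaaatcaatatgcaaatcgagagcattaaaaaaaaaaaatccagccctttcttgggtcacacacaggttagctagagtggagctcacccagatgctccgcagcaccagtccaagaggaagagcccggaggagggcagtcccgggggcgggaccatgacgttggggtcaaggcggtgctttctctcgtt
Pfkfb3, chr2:11553930-11554179, minus strand: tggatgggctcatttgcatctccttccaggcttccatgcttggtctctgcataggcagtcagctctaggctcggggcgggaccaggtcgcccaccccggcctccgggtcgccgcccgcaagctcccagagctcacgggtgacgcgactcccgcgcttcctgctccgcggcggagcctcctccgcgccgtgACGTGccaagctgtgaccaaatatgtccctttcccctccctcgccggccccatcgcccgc
Slc2a1, chr4:119108495-119108744, plus strand: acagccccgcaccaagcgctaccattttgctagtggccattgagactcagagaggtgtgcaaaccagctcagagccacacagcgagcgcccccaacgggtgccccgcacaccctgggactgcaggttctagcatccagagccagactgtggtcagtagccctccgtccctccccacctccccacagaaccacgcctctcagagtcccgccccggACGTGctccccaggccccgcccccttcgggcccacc
Ldha, chr7:46845554-46845803, plus strand: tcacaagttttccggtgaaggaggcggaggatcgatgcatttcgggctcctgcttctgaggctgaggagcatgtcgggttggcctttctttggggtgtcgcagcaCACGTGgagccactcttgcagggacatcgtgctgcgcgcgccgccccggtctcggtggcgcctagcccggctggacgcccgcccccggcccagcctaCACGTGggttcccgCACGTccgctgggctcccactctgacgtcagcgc
Ldha held 5 matches to ACGTG, Ddit4, Egln3, Pfkfb3 and Slc2a1 held 1 each, and Adm, the gene with the largest rise, held 0. The GCGTG form was not counted, so no share of promoters with it is known here. Among the printed windows, those of Adm and Slc2a1 hold it on the other strand, as CACGC, and that of Ddit4 on the printed strand. The ACGTG form overlaps the E-box CACGTG, which reads as a match on both strands and which MYC and other factors bind. Ldha held 2 such E-boxes. Of the 34 genes 31 had an entry, and Slc2a3, Bnip3l and Ndrg1 did not. Counting every start, 8 of 12 hypoxia target promoters (66.7%) and 9 of 26 enzyme promoters (34.6%) held the ACGTG form. It was in 21.0% of 13563 promoters of tested genes and 16.6% of all 32851. Base composition differed too, with a median GC content of 65.8% for target, 59.8% for enzyme and 59.2% for tested-gene promoters. These matches describe letters in a window, and whether a factor binds there was not measured.

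Of the 4 transporter genes 3 were higher in KO, beside 10.1% of all tested genes, and Slc2a3 was not called. Slc16a3, which encodes the lactate exporter MCT4, had 231 and 243 CPM in WT and 278 and 279 in KO. It was 1.18-fold higher (log2 fold change 0.23, SE 0.0555, edgeR adjusted p = 0.00976). Slc16a1, which encodes the lactate and pyruvate carrier MCT1, had 190 and 176 CPM in WT and 208 and 213 in KO, 1.15-fold higher (edgeR adjusted p = 0.0318). Both KO libraries were above both WT libraries for each of these genes. The main glucose importer gene Slc2a1 (GLUT1) had 231 and 223 CPM in WT and 248 and 270 in KO, 1.14-fold higher (edgeR adjusted p = 0.0420), again with no overlap. The count of Slc2a1 is uncertain by 105 exonic bases that the antisense gene Gm12868 shares. Slc2a3 (GLUT3, a high-affinity glucose importer) had 176 and 166 against 186 and 185 CPM (log2 fold change 0.12, 95% interval -0.01 to 0.25, edgeR adjusted p = 0.181). The calls of Slc2a1 and Slc16a1 were close to the threshold, and each of the 3 calls was lost when certain libraries were left out. Without WT replicate 1 Slc16a3 was not called (edgeR adjusted p = 0.1214, range over the alternatives 0.00117 to 0.1214). Slc16a1 lost it without WT replicate 2 or KO replicate 2 (0.286 and 0.0577, range 0.00424 to 0.286). Slc2a1 lost it without WT replicate 1, WT replicate 2 or KO replicate 2 (0.1135, 0.210 and 0.235, range 0.00542 to 0.235). Slc2a1 lies at chr4:119108711-119137983, Slc16a1 at chr3:104638668-104658462 and Slc16a3 at chr11:120948480-120960868, all on the plus strand and protein coding (mm10, GENCODE M21). Summed over the 4 genes, the level was 828 and 808 CPM in WT and 920 and 947 in KO. CD8 T cell markers were lower and neutrophil markers higher in the same KO libraries, and their part was not tested.

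Of the 15 glycolytic enzyme genes, 2 were higher, 0 lower and 13 were not called (13.3% higher, beside 10.1% of all tested genes, so close to the background). At an unadjusted p under 0.05, 3 were higher and 0 lower, and DESeq2 and limma-voom also called 0 lower. The 2 called genes encode isoforms of phosphofructokinase, the committed step of the pathway. Pfkp, the platelet isoform, had 428 and 444 CPM in WT and 511 and 502 in KO, 1.16-fold higher (log2 fold change 0.22, SE 0.0524, edgeR adjusted p = 0.0109). Pfkl, the liver isoform, had 294 and 302 CPM in WT and 334 and 344 in KO, 1.14-fold higher (log2 fold change 0.18, SE 0.0539, edgeR adjusted p = 0.0281). Neither gene had overlapping groups. Pfkp lies at chr13:6579768-6648777 and Pfkl at chr10:77986947-78010083, both on the minus strand and protein coding (mm10, GENCODE M21). The muscle isoform gene Pfkm was not called at 16.5 and 16.0 against 17.6 and 17.0 CPM (log2 fold change 0.09). Without WT replicate 1 Pfkp was not called (edgeR adjusted p = 0.1182, range over the alternatives 0.00115 to 0.1182). Pfkl lost it without WT replicate 1, WT replicate 2 or KO replicate 2 (0.204, 0.0880 and 0.1018, range 0.00286 to 0.204). Pfkp and Pfkm share exonic bases with Pitrm1 and Senp1 on the opposite strand, and the strand setting of the counting is not given in the sources used here, so both are uncertain.

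The enzyme gene with the highest FPKM (a level per gene length) was Ldha, which encodes the lactate dehydrogenase subunit that favours lactate formation. It had 2738 and 2708 CPM in WT and 2938 and 2964 in KO, with no overlap between groups. Its log2 fold change was 0.12 (95% interval 0.01 to 0.22) and it did not pass (edgeR adjusted p = 0.118), although limma-voom called it (adjusted p = 0.0462, range over the alternatives 0.00908 to 0.402). Pkm, the pyruvate kinase gene, had 2289 and 2356 CPM in WT and 2355 and 2276 in KO, and the groups overlapped. Eno1 (enolase) had 2015 and 2113 against 2218 and 2114 CPM, and Aldoa (aldolase A) had 1533 and 1573 against 1670 and 1623 CPM, both with narrow gaps between the groups and no call. Log2 fold changes were -0.05 for Hk1 and 0.09 for Hk2, the hexokinase genes that trap glucose in the cell. They were -0.0015 for Gpi1 (glucose-6-phosphate isomerase), 0.23 for Aldoc, -0.05 for the triosephosphate isomerase gene Tpi1, 0.08 for the phosphoglycerate kinase gene Pgk1 and 0.07 for the mutase gene Pgam1. For the 10 enzyme genes with a mean of at least 100 CPM that were not called, no 95% interval reached below -0.27 (Gapdh) or above 0.22 (Ldha) on the log2 scale, a 1.20-fold fall and a 1.17-fold rise. Scaling affects these small values. With library totals alone Hk1, Gpi1, Tpi1, Gapdh and Pkm took a positive sign, and the count of higher genes among the 21 transporter, enzyme and regulator genes was 11 instead of 6. That count was 2 without WT replicate 1, 3 without WT replicate 2 and 3 without KO replicate 2. Summed over the 15 genes the level was 12196 and 12255 CPM in WT and 12781 and 12722 in KO, a ratio of 1.04. The changes in CD8 T cell and neutrophil markers stood beside this result as well, and their part was not tested.

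Gapdh, which encodes the dehydrogenase of the middle of the pathway and often serves as a reference gene, had 158 and 136 CPM in WT and 128 and 150 in KO. The groups overlapped, and the log2 fold change was -0.08 (edgeR adjusted p = 0.579). It was called lower without KO replicate 2 (log2 fold change -0.20, edgeR adjusted p = 0.0497, range over the alternatives 0.0497 to 0.976). Its level is uncertain because 24.7% of the distinct 50-base words of its transcripts also occur in transcripts of other genes, among them 213 annotated pseudogenes. For 7 of the 34 genes at least 10% of such words were shared. Beside Gapdh these were Pgk1 (53.9%), Pgam1 (36.2%), Eno1 (26.0%, led by its near-copy Eno1b), Bnip3l (20.8%), Bnip3 (16.5%) and Pkm (14.2%), so reads of these genes could be split or dropped in counting. Exonic bases were shared with Gm49759 on the same strand by Pkm (767 bases). Opposite-strand genes shared them with Gpi1 (741), Bnip3 (504), Hk1 (157), Gapdh (68) and Tpi1 (34), so these counts are uncertain too.

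**Figure D2:**
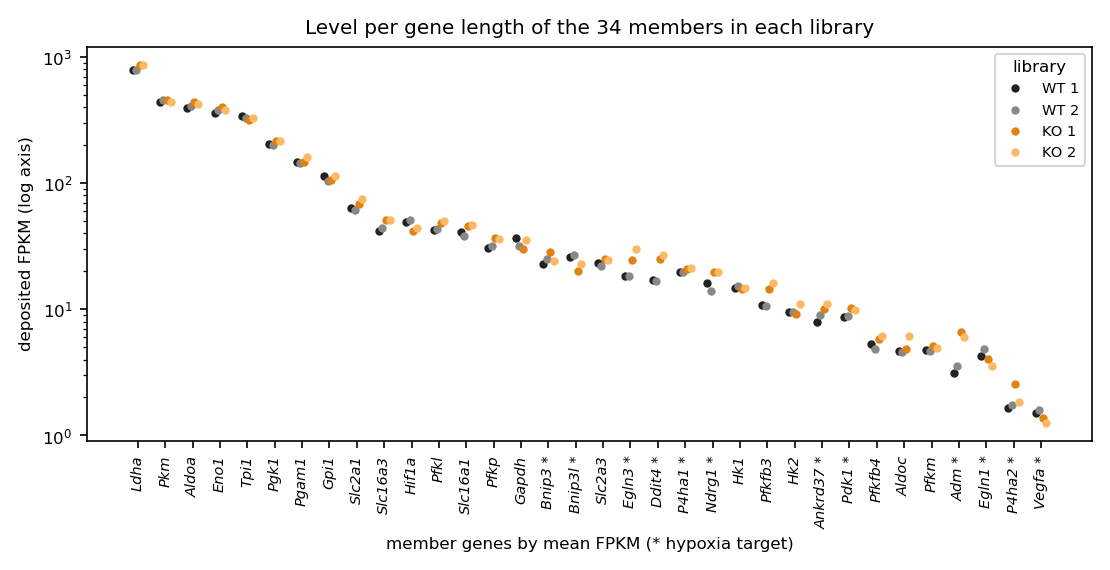
Deposited FPKM (a level per gene length, log axis) of each of the 34 genes in each of the 4 libraries, ordered by mean, with hypoxia targets marked by an asterisk. Ldha lies highest at 789 to 866 FPKM, 8 enzyme genes fill the upper end, and every hypoxia target lies at or below 30.2 FPKM.

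Levels per gene length differed widely among the members. On the deposited FPKM scale Ldha was at 789 to 866, Pkm at 440 to 456, Aldoa at 397 to 436 and Eno1 at 360 to 400. Aldoa and Eno1 overlapped in range, whereas Ldha and Pkm did not overlap with their neighbours. Tpi1 (319 to 340 FPKM), Pgk1 (201 to 215), Pgam1 (143 to 160) and Gpi1 (105 to 114) followed without overlap. Slc2a1, at 61.4 to 74.5 FPKM, took 73.1% to 75.1% of the summed FPKM of Slc2a1 and Slc2a3 in each library. Among phosphofructokinase genes Pfkl took 53.6% to 54.7%, Pfkp 39.4% to 40.8% and Pfkm 5.40% to 6.10%, so this balance was nearly the same in both groups. Among hexokinase genes Hk3, which is known from myeloid cells and is not one of the 34, took 49.7% to 53.3%, Hk1 28.6% to 30.8% and Hk2 17.8% to 21.4%. The hypoxia targets were lower in level, with Vegfa lowest at 1.25 to 1.60 FPKM and Bnip3 highest by its mean at 23.1 to 28.2 FPKM, a range that overlapped those of Bnip3l (20.3 to 26.8) and Egln3 (18.2 to 30.2).

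Pfkfb3, one of the 2 regulators, was the most clearly changed gene of sugar metabolism in the set. It encodes a bifunctional enzyme that makes fructose-2,6-bisphosphate, the strongest activator of phosphofructokinase, and it is itself a HIF-1 target. Its levels were 85.1 and 82.9 CPM in WT and 114 and 128 CPM in KO, with both KO libraries well above both WT libraries. It was 1.43-fold higher (log2 fold change 0.52, SE 0.0742, edgeR adjusted p = 0.000323) and kept its call in every alternative listed in the closing section (adjusted p up to 0.000895). Its paralog Pfkfb4 had 26.8 and 24.6 CPM in WT and 29.4 and 31.2 in KO, a log2 fold change of 0.24 that did not pass (95% interval -0.01 to 0.49, edgeR adjusted p = 0.172). Pfkfb3 took 67.2% and 68.5% of the summed FPKM of this pair in WT and 71.4% and 72.5% in KO, a ratio within each library that no scaling alters. Pfkfb3 lies at chr2:11471433-11554077 on the minus strand (mm10, GENCODE M21) and is protein coding. Neutrophil markers were higher and CD8 T cell markers lower in the same libraries, and their part was not tested.

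Hif1a RNA was lower in KO. It had 303 and 311 CPM in WT and 255 and 267 in KO, so the groups did not overlap. The fall was 1.18-fold (log2 fold change -0.23, SE 0.0556, edgeR adjusted p = 0.00968). It was not called without WT replicate 2 (edgeR adjusted p = 0.0793), nor when scaled by library totals only (0.0709), in a range of 0.00312 to 0.0793 over the alternatives. Hif1a lies at chr12:73901375-73947530 on the plus strand (mm10, GENCODE M21), is protein coding, and shares exonic bases with 2 annotated genes there, Gm15283 and Gm49321, so its count is uncertain to that extent.

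**Figure D3:**
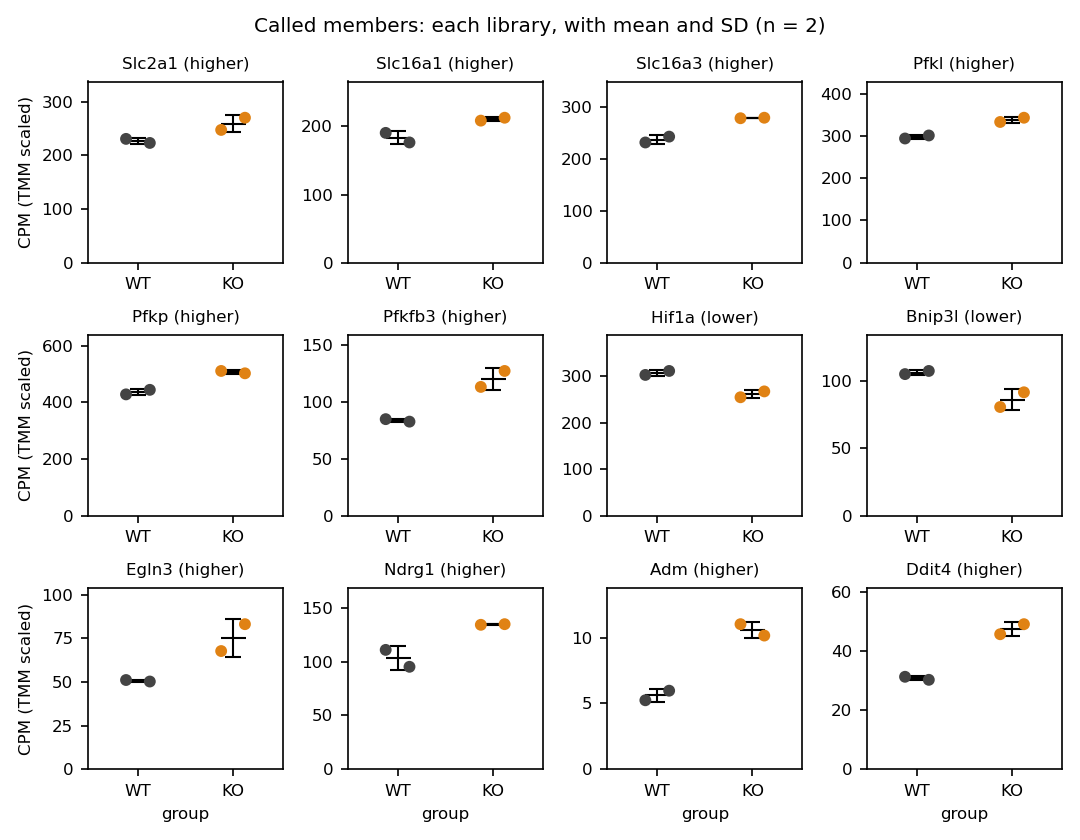
TMM-scaled CPM of the 12 called genes in each library (points, grey for WT and orange for KO), with the mean and SD of the 2 libraries of each group, on axes that start at 0. Both KO points lie above both WT points for the 10 higher genes and below them for Hif1a and Bnip3l. The genes shown were picked by their calls in these same libraries, so this separation is no further support. Groups did not overlap for 59.8% of all tested genes (29.7% above and 30.0% below).

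Of the 12 hypoxia targets, 4 were higher, 1 lower and 7 were not called (33.3% higher and 8.33% lower, beside 10.1% and 11.0% of all tested genes). Adm encodes adrenomedullin, a secreted peptide that widens vessels. It had 124 and 149 counts in WT and 293 and 274 in KO, or 5.23 and 5.96 against 11.0 and 10.2 CPM. The rise of 1.89-fold (log2 fold change 0.92, SE 0.202, edgeR adjusted p = 0.00624) was the largest of the 34 genes but rests on few reads. Its call was lost if WT replicate 1 was left out (edgeR adjusted p = 0.0683, range over the alternatives 0.000724 to 0.0683). Ddit4, which encodes REDD1, an inhibitor of mTORC1 induced by hypoxia and other stresses, had 31.3 and 30.2 CPM in WT and 45.7 and 49.1 in KO. It was 1.54-fold higher (log2 fold change 0.62, SE 0.0993, edgeR adjusted p = 0.000732). Egln3 encodes PHD3, an oxygen-sensing hydroxylase that is both a regulator and a target of HIF. Its levels were 51.1 and 50.3 CPM in WT and 67.7 and 83.2 in KO, 1.49-fold higher (log2 fold change 0.57, SE 0.0990, edgeR adjusted p = 0.00128), with the 2 KO libraries further apart than the WT libraries.

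Ndrg1, a stress-responsive gene of differentiation and vesicle traffic, had 111 and 95.2 CPM in WT and 134 and 135 in KO, 1.31-fold higher (log2 fold change 0.39, SE 0.0763, edgeR adjusted p = 0.00327). Ndrg1 shares exonic bases with the opposite-strand transcripts Gm17035 and Gm2895. Ddit4, Egln3 and Ndrg1 kept their calls in every alternative, with highest adjusted p-values of 0.00373, 0.00433 and 0.0386. Bnip3l, which encodes the mitophagy receptor NIX, went the other way, at 105 and 107 CPM in WT and 80.7 and 91.6 in KO. It was 1.23-fold lower (log2 fold change -0.30, SE 0.0760, edgeR adjusted p = 0.0131). It was not called without WT replicate 2, without KO replicate 1 or under library totals (edgeR adjusted p = 0.0648, 0.0571 and 0.0555, range over the alternatives 0.000106 to 0.0648). Its paralog Bnip3, also a mitophagy receptor, had 54.3 and 58.7 CPM in WT and 65.9 and 57.0 in KO, and the groups overlapped (log2 fold change 0.12, edgeR adjusted p = 0.411). Adm lies at chr7:110627661-110629820 (plus strand), Ddit4 at chr10:59949669-59951834 (minus), Egln3 at chr12:54178981-54203860 (minus) and Ndrg1 at chr15:66929318-66969640 (minus), all protein coding (mm10, GENCODE M21).

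The 6 other targets were not called. Vegfa, the angiogenic growth factor gene, was at 6.67 and 7.12 CPM in WT and 6.13 and 5.56 in KO (log2 fold change -0.24, 95% interval -0.72 to 0.24), with no overlap between groups but an interval too wide to detect a change of that size at this depth. Egln1, which encodes PHD2, the main HIF hydroxylase, was at 15.8 and 18.0 against 14.9 and 13.3 CPM (log2 fold change -0.27, 95% interval -0.60 to 0.06). Pdk1, a kinase gene whose product keeps pyruvate out of the mitochondrial cycle, was at 70.7 and 71.8 against 82.1 and 79.8 CPM (log2 fold change 0.18, edgeR adjusted p = 0.0977). The log2 fold change was 0.31 for Ankrd37, which has overlapping opposite-strand genes (Lrp2bp and Ufsp2) and is uncertain. The collagen prolyl hydroxylase subunit genes P4ha1 and P4ha2 had 0.08 and 0.37. P4ha2 was spread in KO (16.6 and 11.9 CPM) and passed only without KO replicate 2 among the alternatives run (edgeR adjusted p = 0.0128, range 0.0128 to 0.770). Summed over the 12 targets the level was 559 and 554 CPM in WT and 630 and 644 in KO. The CD8 T cell and neutrophil marker changes given above stood beside the hypoxia targets too, and their part was not tested.

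Enzymes and hypoxia targets were then set side by side in each pairing of a KO with a WT library, as log2 ratios of CPM + 0.5. The median over the 15 enzymes was between 0.05 and 0.11 in the 4 pairings, and over the 12 targets it was between 0.13 and 0.28. Targets exceeded enzymes by 0.23 (KO 1 over WT 1), 0.11 (KO 1 over WT 2), 0.08 (KO 2 over WT 1) and 0.02 (KO 2 over WT 2). Between the 2 replicates of a group the same difference was 0.06 in WT and -0.05 in KO, so the gap in 1 of the 4 pairings was no larger than the spread between replicates. The classes differed more in how widely their members were spread. Fitted log2 fold changes ran from -0.08 to 0.23 over the enzymes and from -0.30 to 0.92 over the targets, although the targets also have lower levels and wider errors. In the fit with all libraries the medians were 0.08 and 0.25. The target median was 0.14 without KO replicate 1. The members are not replicates and the 4 pairings share libraries, so no test of the classes was made.

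**Figure D4:**
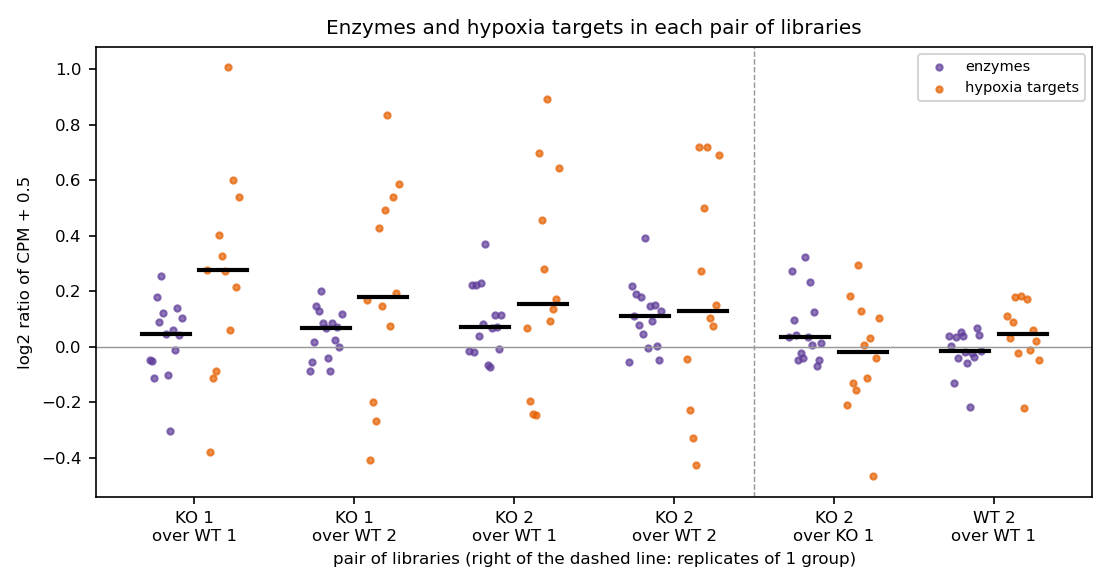
Log2 ratio of CPM + 0.5 for each enzyme (purple) and each hypoxia target (orange) in the 4 pairings of a KO with a WT library and, right of the dashed line, between replicates of a group. Black bars are medians. The target bar is above the enzyme bar in all 4 pairings, by 0.02 to 0.23, but the pairings share libraries and are not independent.

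Other genes of the same pathways were mostly not called. Of 22 tested other glycolysis genes, 2 were higher and 1 lower (9.09% and 4.55%, beside 10.1% and 11.0% of all tested genes, with a median log2 fold change of 0.0080). Gpd2, the mitochondrial glycerol-3-phosphate dehydrogenase gene of the shuttle that hands cytosolic electrons to the respiratory chain, had 150 and 143 CPM in WT and 81.6 and 84.4 in KO, far apart. It was 1.77-fold lower (log2 fold change -0.82, edgeR adjusted p = 2.17e-06) but overlaps A930012O16Rik on the opposite strand. Adpgk, an ADP-dependent glucokinase gene, was 1.37-fold higher (edgeR adjusted p = 0.00386) and overlaps Bbs4, and the glucose transporter gene Slc2a6 was 1.18-fold higher (edgeR adjusted p = 0.0420). Of 13 HIF subunits and regulators, 0 were higher (also 0 at an unadjusted p under 0.05 with edgeR) and 1 was lower (7.69%, beside 11.0%), the coactivator gene Crebbp (1.26-fold, edgeR adjusted p = 0.00446). The partner subunit gene Arnt and the ubiquitin ligase gene Vhl had log2 fold changes of 0.07 and -0.02 and were named after their values were seen.

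Of 28 other hypoxia targets, 6 were higher and 4 lower (21.4% and 14.3%, beside 10.1% and 11.0% of all tested genes, so the lower share is near the background, with a median of 0.09). The higher ones were Stc2, which encodes a secreted glycoprotein (1.94-fold), the collagen crosslinking enzyme gene Lox (1.61-fold), the early response gene Ier3 (1.57-fold) and the lipase inhibitor gene Angptl4 (1.45-fold). By edgeR, adjusted p ran from 0.000109 (Ier3) to 0.0124 (Angptl4). The cytokine gene Mif and the transferrin receptor gene Tfrc were also higher, 1.28-fold and 1.22-fold, and were named after their values were seen. The lower ones were Bhlhe40, a transcriptional repressor gene (1.88-fold), the lysyl hydroxylase gene Plod1 (1.28-fold), Wsb1 (1.25-fold) and the annexin gene Anxa2 (1.20-fold), with adjusted p-values from 8.89e-08 for Bhlhe40 to 0.00526 for Plod1 (edgeR). Bhlhe40, which overlaps the antisense gene 0610040F04Rik, was at 1549 and 1582 CPM in WT and 849 and 817 in KO. Summed over these 28 genes the level was 6227 and 6241 CPM in WT and 5336 and 5451 in KO, the opposite direction to the sum of the 12 targets. Its largest terms were Anxa2 (1736 and 1798 against 1490 and 1459 CPM) and Bhlhe40. These genes together fell by more than the whole sum did, so the direction of the sum rests on them. By gene, 17 of the 28 log2 fold changes were positive and 11 negative. Of 12 tested genes of pyruvate entry into mitochondria, 2 were higher and 0 lower (16.7% higher, beside 10.1%), the pyruvate dehydrogenase subunit gene Dlat (1.27-fold) and the phosphatase gene Pdp2 (1.21-fold). Of 10 pentose phosphate genes, 1 was higher (10%, at the background) and 0 were lower. It was Prps1 (1.36-fold, edgeR adjusted p = 0.000510), which makes the ribose precursor of nucleotides. In both lists 0 genes were lower at an unadjusted p under 0.05 (edgeR). The same neutrophil and CD8 T cell marker changes accompanied these lists, and their part was not tested.

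**Figure D5:**
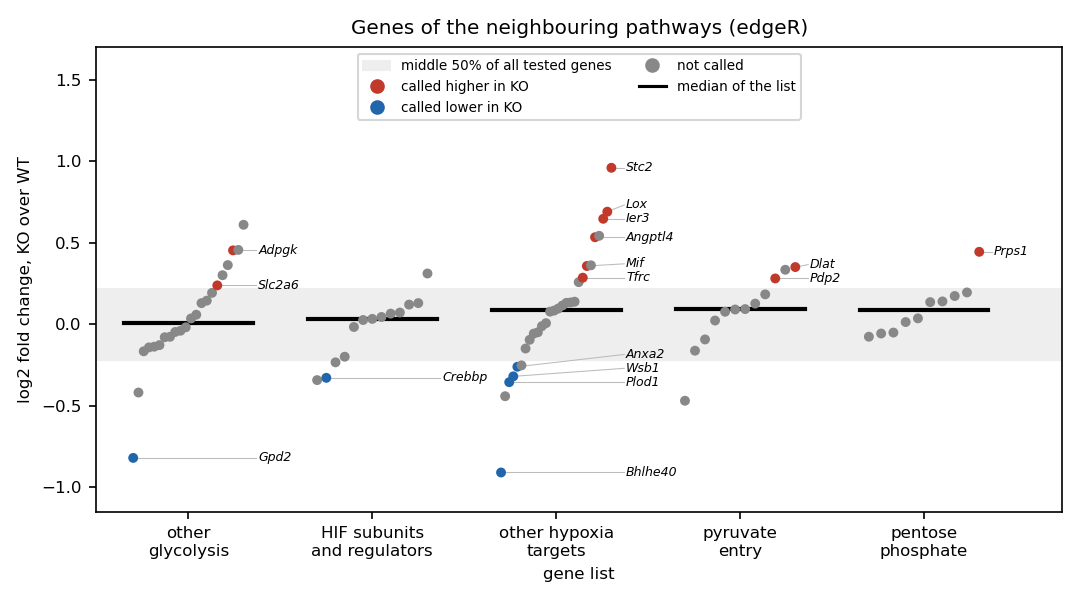
Log2 fold change of KO over WT for each tested gene of the 5 neighbouring lists, with called genes named, list medians as black bars and the middle 50% of all tested genes as a grey band. The list medians lie between 0.0080 and 0.09, inside the band, while Stc2 and Bhlhe40 mark the extremes at 0.96 and -0.91.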

How the data were processed

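One table per library gave counts and FPKM side by side. Named in the submitters' processing notes, without their roles, are the genome build mm10 and the tools featureCounts, Bowtie2, Trim Galore 0.4.4, DESeq2 and edgeR. The authors deposited raw counts, per the file headers, and all are integers. The FPKM values were deposited by the authors, per the file headers, and served only to describe levels between genes. Neither annotation, strand setting nor read length is stated in the labels.

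The 2 KO libraries were compared with the 2 WT libraries by the quasi-likelihood test of edgeR 4.0.16 (R 4.3.3, TMM scaling, robust glmQLFit, filterByExpr at min.count 10 and min.total.count 15), with Benjamini-Hochberg adjustment over 13358 genes and a threshold of 0.05. The step was tested on simulated data whose changes were larger than those of most called members, so that test says nothing of the smallest calls. The filter removed 724 genes and none of the 34. Common biological variation was 9.31%. Replicates differed beyond Poisson error (chi-square per degree of freedom 7.39 for WT and 9.72 for KO), so none was merged. SE is the log2 fold change over the root of F, intervals are 95%, and a level pair gives the 2 libraries. Precision falls with the count, so members of low CPM have the widest intervals. Exonic overlaps and shared 50-base words were computed from GENCODE M21 (GRCm38), which lists Aldoa under 2 entries, both counted as its own.

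The members and lists were chosen with earlier results of these data known. All 34 members were named, with per-library values for called ones. Of each other list up to 4 called genes per direction were named, by size of change. Not every gene of these lists is in the tables, and those that are not were not analysed here. Alternatives were RLE scaling, library totals alone, leaving out mitochondrial genes, no filter, a filter of 1 CPM in 2 libraries, DESeq2 1.42.0, limma-voom (limma 3.58.1), a block for replicate number and the omission of every library in turn.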

Additional observations from a re-analysis of the deposited data

How the results depend on the processing

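Of the 12 called genes, Pfkfb3, Egln3, Ndrg1 and Ddit4 kept their calls in all 12 alternatives. Over the 34 genes and 12 alternatives, 365 of 408 values kept their direction and side of the threshold, 19 lost a call, 9 gained one and 15 changed sign. RLE scaling, leaving out mitochondrial genes, both filters, DESeq2 and limma-voom kept the counts of called members within 1.5 times. Gpi1, at -0.0015, changed sign to 0.0011 with RLE scaling, 0.00082 without mitochondrial genes and 0.0011 with DESeq2. Library totals alone shifted the median of all genes by 0.09 on the log2 scale. It gave 2105 higher genes among all tested (1354 with TMM), 11 higher glycolysis genes (6), 0 lower hypoxia targets (1), and medians of 0.16 for enzymes and 0.33 for targets. Under it Hk1 became 0.033, Gpi1 0.084, Tpi1 0.031, Gapdh 0.0051 and Pkm 0.081 (log2). That setting changes nothing but the scaling.

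Leaving out each library gave 714 to 1605 higher and 831 to 1787 lower genes, 2 to 6 higher and 0 to 1 lower glycolysis genes, and 3 to 5 higher and 0 to 1 lower targets. Medians ran from 0.057 to 0.085 for enzymes and from 0.14 to 0.24 for targets. Log2 fold changes then ran from -0.055 to 0.22 for Hk2, -0.062 to 0.062 for Gpi1, -0.20 to 0.032 for Gapdh, -0.029 to 0.020 for Pkm and -0.063 to 0.40 for Smad4. The cause was not tested. With the replicate number as a block, 3 glycolysis genes were higher instead of 6, and Slc2a1, Slc16a1 and Pfkl were not called (adjusted p = 0.0914, 0.0704 and 0.0986). Same-numbered libraries did not deviate together (correlation of deviations -0.031), so the number is not known to pair them. Depth limits Vegfa, Adm and P4ha2 most, the members with the largest SE.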
